A study of Homo sapiens with 4 samples.

Results

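LY75 and the other members of the mannose receptor family were examined in RRBS (reduced representation bisulfite sequencing) data of SKOV3 cells, a human epithelial ovarian cancer line. The 5 genes LY75, CD302, PLA2R1, MRC1 and MRC2 were each taken with 20 kb on both sides, and every tile of 1000 bp that touched these windows was looked up in the 3 deposited tables of differentially methylated tiles. In the whole series 72455 of 3036315 tiles were listed in at least 1 table, and in the windows 11 of 584 tiles. The same was done for 800 tiles of the 2q24 neighbourhood of LY75, from 361 kb on one side of the LY75 TSS (transcription start site) to 439 kb on the other (chromosome 2, hg19), of which 14 were listed.

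The series comprised 4 libraries, 1 for each stable SKOV3 clone. In shC-S the cells carried a control shRNA, in sh-LY75-S an shRNA against LY75, in LY75-KO-S LY75 had been suppressed by CRISPR, and LY75-R-S was labelled as LY75 overexpression on top of the LY75 shRNA. The study described shC-S and LY75-R-S as clones of mesenchymal (M) phenotype and sh-LY75-S and LY75-KO-S as clones of epithelial (E) phenotype. One deposited table compares shC-S with sh-LY75-S (the shRNA comparison), another compares LY75-R-S with LY75-KO-S (the CRISPR comparison), and the last sets both M clones against both E clones (the mix). The shRNA and the CRISPR comparison shared no library, whereas the mix repeated the libraries of both. The M clone of the CRISPR comparison carried the LY75 shRNA and the added LY75, so that the comparisons also differ in their control. As there were no replicate libraries, a difference between clones and an effect of LY75 cannot be told apart, no test between conditions was made, and listing means only that a tile passed the thresholds of the study in that comparison. Every listed tile met the limits in the names of the tables, a difference of at least 25 percentage points and a q-value under 0.01, although the study's methods name a less strict adjusted p-value. Beyond that check, the direction and size of each difference were not used here, the read coverage behind it is unknown, and LY75 RNA and protein were not analysed here.

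The mannose receptor family consists of large endocytic membrane proteins with several C-type lectin-like domains next to a cysteine-rich and a fibronectin type II domain. LY75 (DEC-205) takes up antigen in dendritic cells, MRC1 (CD206) binds mannose-bearing glycoproteins on macrophages, MRC2 (Endo180) takes up collagen in mesenchymal cells, and PLA2R1 binds secreted phospholipases A2. CD302 is a small C-type lectin receptor encoded next to LY75, and read-through transcription joins both genes into a fusion mRNA, LY75-CD302. RRBS reads the ends of fragments cut at the MspI site CCGG, so that it samples CpG-rich promoters densely and most other DNA sparsely.

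The sequences around the TSS differed in their supply of CpG dinucleotides, which are the only sites that the tables can report on. The 250 bases before the canonical TSS are given for 3 members, 5′ to 3′ on the strand of the gene in GRCh37, with every CpG in capitals. They lie at chr2:160761268-160761517 (LY75, minus strand), chr2:160919127-160919376 (PLA2R1, minus strand) and chr10:18098102-18098351 (MRC1, plus strand).
LY75: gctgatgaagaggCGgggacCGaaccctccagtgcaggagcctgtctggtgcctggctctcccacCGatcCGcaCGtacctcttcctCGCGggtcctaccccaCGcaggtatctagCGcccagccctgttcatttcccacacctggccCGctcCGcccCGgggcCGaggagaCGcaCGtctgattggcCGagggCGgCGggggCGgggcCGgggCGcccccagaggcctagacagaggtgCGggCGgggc
PLA2R1: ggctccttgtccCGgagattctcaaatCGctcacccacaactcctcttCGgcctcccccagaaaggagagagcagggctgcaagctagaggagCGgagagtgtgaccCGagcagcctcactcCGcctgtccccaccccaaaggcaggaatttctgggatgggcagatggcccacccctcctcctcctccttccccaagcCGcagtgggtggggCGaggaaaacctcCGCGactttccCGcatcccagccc
MRC1: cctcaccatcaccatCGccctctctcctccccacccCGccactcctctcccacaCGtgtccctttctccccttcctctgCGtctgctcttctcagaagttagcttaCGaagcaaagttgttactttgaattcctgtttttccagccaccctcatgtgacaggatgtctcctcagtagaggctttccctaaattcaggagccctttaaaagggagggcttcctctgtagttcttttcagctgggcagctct

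LY75 held 23 CpGs in this stretch, PLA2R1 11 and MRC1 5, and the corresponding stretch of CD302 held 26. The median over the 250 upstream bases of 35116 RefSeq promoters was 11 CpGs. The MspI site CCGG occurred 2 times upstream of LY75, 3 times upstream of CD302, 1 time upstream of PLA2R1 and not at all upstream of MRC1, and 58.5% of the RefSeq promoters held it. The GC box GGGCGG, searched on both strands, occurred 4 times in LY75 and 5 times in CD302, in neither PLA2R1 nor MRC1, and was held by 42.6% of the promoters. The letters CCAAT were found 1 time in LY75 and in none of these 3 other members, against 32% of the promoters, and TATAAA in none of these 4, against 10.7%.

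Which tiles RRBS could have reported was worked out from the genome. A tile was called reachable when at least 1 of its CpGs lay in the first or last 50 bases of an MspI fragment of 40 to 220 bp. Of the tiles listed on chromosomes 1 to 22 and X, 93.4% were reachable in the shRNA comparison, 90.4% in the CRISPR comparison and 94.6% in the mix. Over the genome, 383358 tiles were reachable, and 12.5% of them were listed in the shRNA comparison, 6.67% in the CRISPR comparison and 5.18% in the mix. In the family windows 81 of 584 tiles were reachable. Of these 81, 8 were listed in the shRNA comparison (9.88%, 95% Wilson interval 5.09 to 18.3), 2 in the CRISPR comparison (2.47%, 0.68 to 8.56) and 3 in the mix (3.7%, 1.27 to 10.3). Each of these intervals for the windows together included the share over the genome, although neighbouring tiles are not independent and the intervals cover counting error only.

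**Figure D1:**
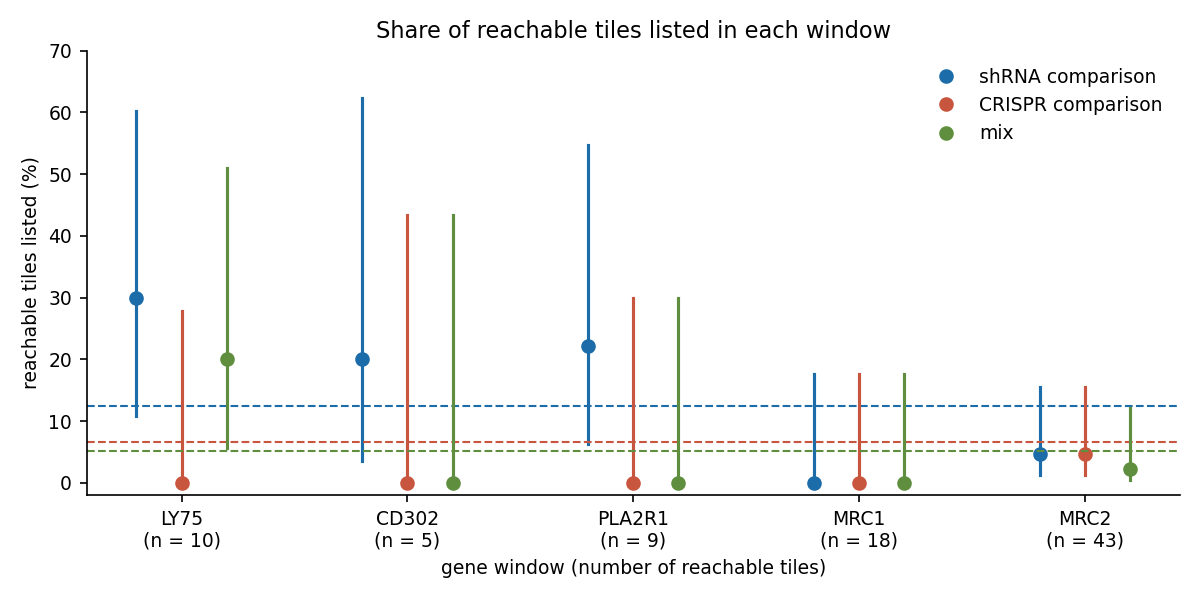
Percent of reachable tiles listed (y axis) in the window of each gene (x axis, with the number of reachable tiles) for the 3 comparisons. Points are shares, vertical lines are 95% Wilson intervals, and dashed lines are the shares over all reachable tiles (12.5%, 6.67% and 5.18%). LY75 has the highest point, 30% in the shRNA comparison, and MRC1 stays at 0 in each comparison. Only the LY75 interval in the mix (5.67 to 51) misses its dashed line, lying above it. It rests on 2 listed tiles of 10 that share a fragment, and the difference was not tested.

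LY75, the gene targeted in the study, lies on the minus strand at chr2:160659866-160761267 and has 35 exons. Its window held 143 tiles, of which 10 were reachable and 4 were listed in some table. The tile with the TSS, chr2:160761001-160762000, was listed in the shRNA comparison and in the mix but not in the CRISPR comparison. It covers exon 1 with the start of the coding sequence, and it held 62 CpGs, a GC content of 60.5% and an observed-to-expected CpG ratio of 0.68. The next tile into the gene, chr2:160760001-160761000, lies in intron 1, held 41 CpGs and was listed in the same comparisons. The pair was served by 8 fragments of 53 to 203 bp, 1 of which spans the border between the tiles, so that their listings are not independent of each other. Over the genome, 13.6% of reachable tiles with a protein-coding TSS were listed in the shRNA comparison, 3.24% in the CRISPR comparison and 6.03% in the mix. Among TSS tiles with 40 to 69 CpGs, the class of LY75 and PLA2R1, these shares were 14.7%, 3.45% and 6.35%.

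In the body of LY75, a tile at exon 3 was listed in the shRNA comparison, and a tile in intron 25 in the CRISPR comparison and in the mix. The exon 3 tile, chr2:160750001-160751000, held 12 CpGs, of which 2 were reachable, and these 2 are the ends of a single fragment of 76 bp. The intron 25 tile, chr2:160695001-160696000, held 10 CpGs and no reachable one, the shortest fragment over it being 303 bp. No tile of the LY75 window was listed in both single comparisons. Over the whole series, the tiles in common made up 16.3% of the shRNA table and 29.5% of the CRISPR table. With so few tiles, nothing particular to LY75 can be read from the lack of overlap. The fragments behind the exon 3 tile (chr2:160750240-160750315) and behind part of the intron 1 tile (chr2:160760805-160760901) show how far the supply of CpGs differs within the gene. They are given on the plus strand with CpGs in capitals. The labels name the tile, and the exon 3 fragment does not lie wholly inside a coding exon.
LY75 exon 3: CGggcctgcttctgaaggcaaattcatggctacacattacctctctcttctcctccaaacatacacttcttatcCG
LY75 intron 1: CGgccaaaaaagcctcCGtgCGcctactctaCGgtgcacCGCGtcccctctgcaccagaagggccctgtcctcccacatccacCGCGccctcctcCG

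Since LY75-R-S was made with an added copy of LY75, reads of its coding exons could come from either copy. The LY75 coding sequence of 5166 bp contained 72 CpGs and 5 MspI sites, and no fragment of 40 to 220 bp between these sites. Of the CpGs in coding exons, 8 were reachable in the genome, none of them in a fragment that lies wholly inside a coding exon. Fragments that join the added copy to its vector were not covered by this count.

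**Figure D2:**
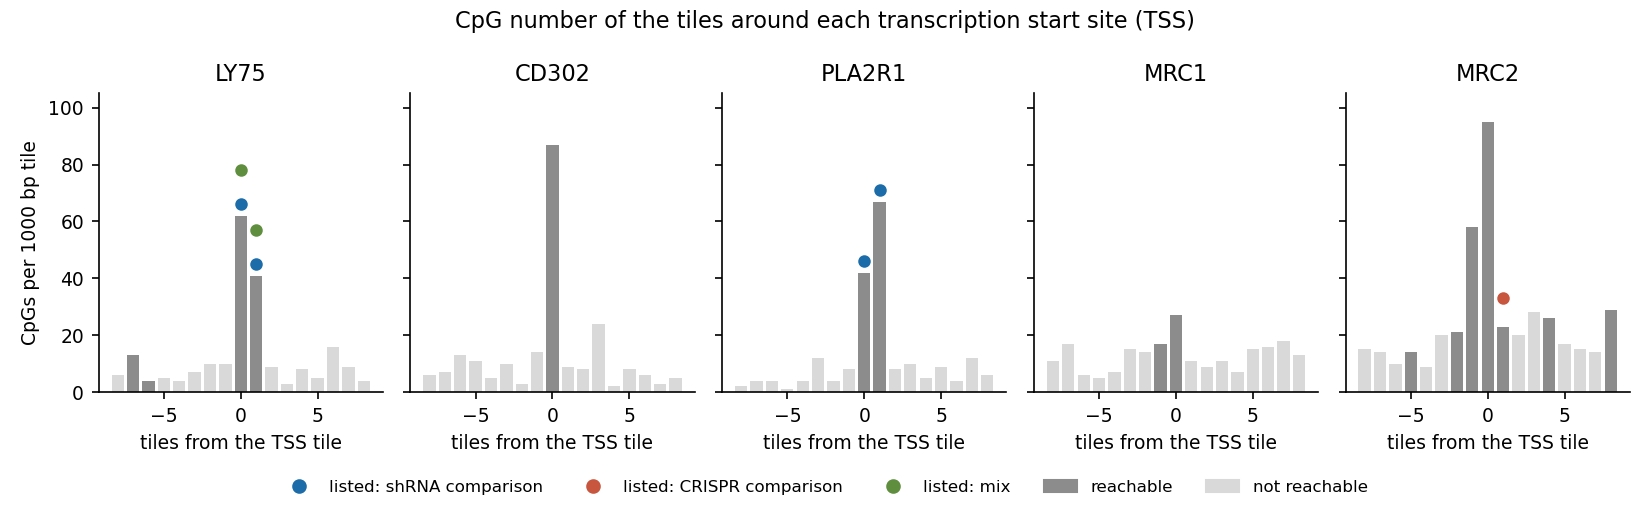
CpGs per tile of 1000 bp (y axis) for the tile with the canonical TSS and 8 tiles on each side, in the direction of transcription (x axis), for the 5 members. Dark bars are reachable tiles, light bars are not reachable, and coloured dots mark listing. LY75 and PLA2R1 have dots on the TSS tile and the next tile, and the taller TSS bars of CD302 (87 CpGs) and MRC2 (95 CpGs) have none. Of all reachable TSS tiles with 70 or more CpGs, 10.8%, 1.56% and 5.15% were listed (shRNA comparison, CRISPR comparison, mix).

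CD302 lies downstream of LY75 on the same strand, at chr2:160625139-160654766. Its TSS tile, chr2:160654001-160655000, held 87 CpGs, 73 of them reachable, and was listed in no table. The TSS tile of CD302 had the most reachable CpGs among those of the members and passed the thresholds in none of the comparisons. How many of these CpGs were covered by reads is unknown. CD302 and MRC2 belong to the class of TSS tiles with 70 or more CpGs. Over the genome, 10.8% of this class were listed in the shRNA comparison, 1.56% in the CRISPR comparison and 5.15% in the mix. Most TSS tiles of this class were thus unlisted in each comparison. A single tile of the CD302 window was listed, chr2:160638001-160639000, in the shRNA comparison only. It lies in intron 2 of CD302, and in intron 35 of the LY75-CD302 fusion, with 17 CpGs, of which 5 were reachable.

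PLA2R1 occupies chr2:160788517-160919126 and is also read from the minus strand. Its TSS tile, chr2:160919001-160920000, held 42 CpGs, and the following tile, chr2:160918001-160919000, which holds the coding part of exon 1, held 67. Both were listed in the shRNA comparison and in neither of the other tables. They were served by 4 fragments of 55 to 186 bp, of which 1 reaches into both tiles. PLA2R1 therefore resembled LY75 in having its start listed in the shRNA comparison, and differed from it in the mix, where LY75 was listed and PLA2R1 was not. The difference between the genes was not tested. The remaining 7 of 9 reachable tiles of the PLA2R1 window were listed nowhere. The fragment just upstream of the TSS, chr2:160919384-160919569, is given on the plus strand.
PLA2R1 upstream: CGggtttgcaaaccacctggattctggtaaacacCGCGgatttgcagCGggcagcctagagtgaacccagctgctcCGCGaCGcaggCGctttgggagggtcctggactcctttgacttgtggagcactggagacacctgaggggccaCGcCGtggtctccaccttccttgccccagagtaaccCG

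MRC2 lies on the plus strand at chr17:60705031-60770958 and had the most reachable tiles of the members, 43 of 106. Its TSS tile, chr17:60705001-60706000, with 95 CpGs and a GC content of 70.1%, was listed in no table. The tile next to it, chr17:60706001-60707000, in intron 1, was listed in the CRISPR comparison only, and held 23 CpGs. A second tile of intron 1, chr17:60730001-60731000, 24970 bp downstream of the TSS, was listed in the shRNA comparison only, with 51 CpGs. The tile chr17:60749001-60750000, at exons 7 and 8, was listed in the CRISPR comparison only. The fourth, chr17:60790001-60791000, lies beyond the end of MRC2, in intron 8 of the neighbouring gene MARCHF10, and was listed in the shRNA comparison and in the mix. The single comparisons listed 2 tiles each at MRC2 and had none in common. Over the whole series, the tiles in common made up 16.3% of the shRNA table and 29.5% of the CRISPR table. With so few tiles, nothing particular to MRC2 can be read from the lack of overlap. The fragments at chr17:60706442-60706497, chr17:60730477-60730543 and chr17:60790563-60790640 illustrate the CpG-poor and CpG-rich ends of this set on the plus strand.
MRC2 next to the TSS tile: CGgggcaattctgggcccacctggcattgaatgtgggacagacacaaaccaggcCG
MRC2 intron 1: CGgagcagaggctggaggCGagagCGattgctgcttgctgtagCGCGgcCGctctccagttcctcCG
MRC2 downstream: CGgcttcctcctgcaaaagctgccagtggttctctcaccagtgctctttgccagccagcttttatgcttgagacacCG

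**Figure D3:**
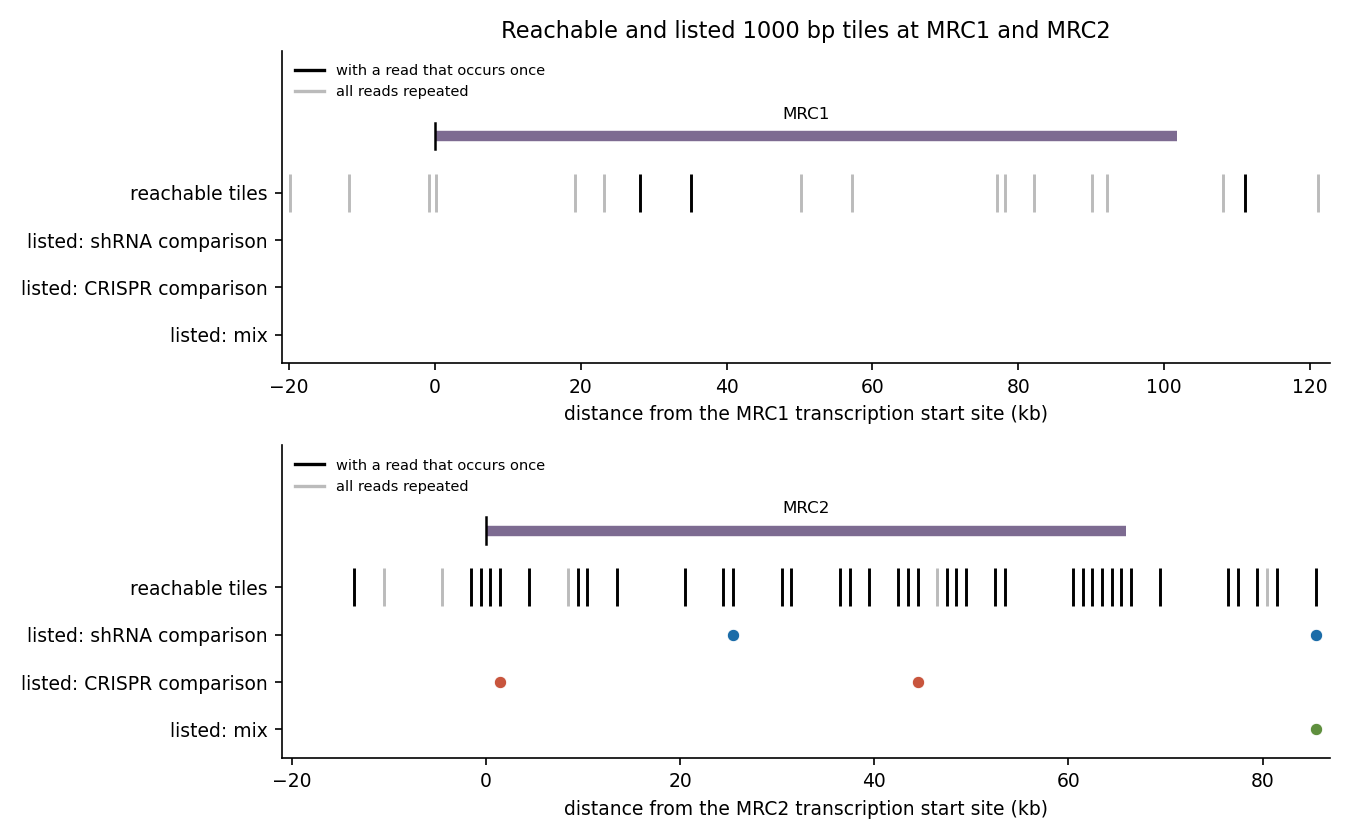
Tiles of the MRC1 window (top) and MRC2 window (bottom) by distance from the TSS in kb (x axis). Vertical lines are reachable tiles and dots are listed tiles. Lines are black where a CpG lies in a predicted read that occurs once among the converted MspI end reads of the genome. They are grey where all such reads are repeated. MRC1 has 3 black lines and no dot, MRC2 38 black lines and dots in each row.

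MRC1, the macrophage mannose receptor, lies on the plus strand at chr10:18098352-18200091, and none of the 143 tiles of its window was listed in any table. For 18 reachable tiles the upper bound of the Wilson interval is 17.6%. This window was however hardly readable, since GRCh37 carries a near-identical copy, MRC1L1, at chr10:17851362-17953178. Of the 50 predicted end reads of MRC1 fragments, 47 (94%) occurred more than once among the converted MspI end reads of the genome, and 46 of them occurred at MRC1L1. Just 3 reachable tiles held a CpG in a read that occurs once, and the TSS tile, with 27 CpGs, was not among them. Repeated reads made up 12.5% in the LY75 window, 30.8% in CD302, 46.7% in PLA2R1, 13.2% in MRC2 and 29.7% over the genome. Reachable tiles with no read that occurs once were listed in 0.548% of cases in the shRNA comparison, 0.448% in the CRISPR comparison and 0.189% in the mix, compared with 15.9%, 8.43% and 6.59% of the other reachable tiles. The empty MRC1 window is therefore no measure of equal methylation between the clones.

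**Figure D4:**
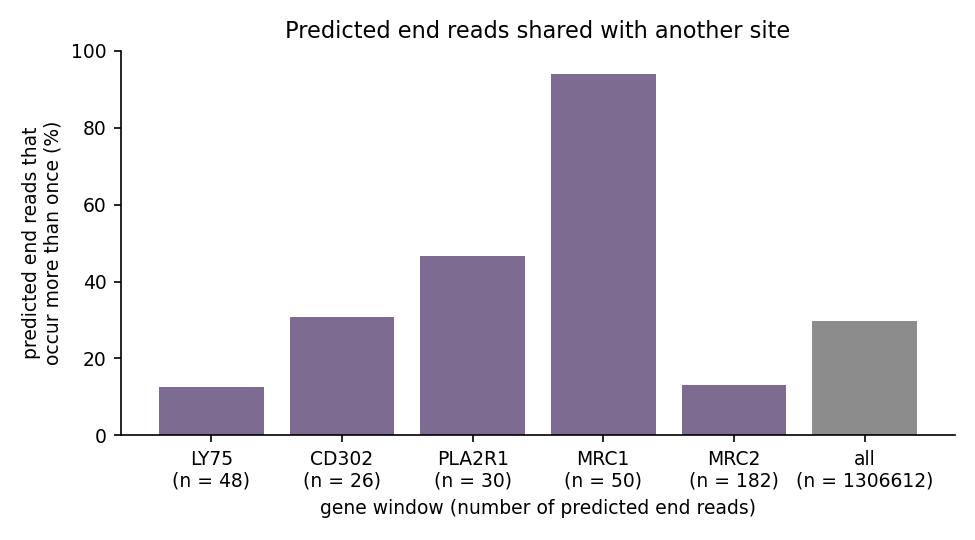
Percent of predicted 50-base end reads of MspI fragments that are repeated (y axis), for the window of each gene and for all fragments (x axis, with the number of reads). A read is repeated when it occurs more than once among the MspI end reads of the genome after conversion of C to T. Bars start at 0; MRC1 reaches 94%, compared with 29.7% for all fragments.

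Between the single comparisons, the 5 windows had 0 of 8 tiles of the shRNA comparison and 0 of 3 tiles of the CRISPR comparison in common. Over the whole series the 8345 tiles in common made up 16.3% of the shRNA table and 29.5% of the CRISPR table. With so few tiles, no difference of the family from the series can be read from these counts. Within 2 kb of a TSS of the members, 4 tiles were listed in the shRNA comparison (LY75 and PLA2R1, 2 each), 1 in the CRISPR comparison (MRC2) and 2 in the mix (LY75). Among all protein-coding genes with a reachable tile there, 33.5%, 15.7% and 16.9% had a listed tile, in the same order. These shares count genes, so the tile counts of the members cannot be set against them directly. The members were not tested against these shares.

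In the 2q24 neighbourhood, 56 of 800 tiles were reachable. Of these, 11 were listed in the shRNA comparison (19.6%, 95% Wilson interval 11.3 to 31.8), 3 in the CRISPR comparison (5.36%, 1.84 to 14.6) and 5 in the mix (8.93%, 3.87 to 19.3), again with the shares over the genome inside each interval. On the side of BAZ2B, a bromodomain gene, and MARCHF7, a ubiquitin ligase gene, the 25 reachable tiles from chr2:160407001 to 160636000 were all unlisted in the shRNA comparison, and they included the MARCHF7 TSS tile with 70 CpGs. This run and those given below for the other comparisons are the longest unlisted runs of reachable tiles, picked from the listings themselves. In 9 of these 25 tiles every predicted read was repeated in the genome, and 16 held a read that occurs once. The sole listed tile in that stretch, chr2:160585001-160586000, at exon 4 of MARCHF7, was not reachable, as it lies inside an MspI fragment of 5271 bp without a CCGG site of its own. In the CRISPR comparison the first 48 reachable tiles, up to position 161037000, were all unlisted (32 with a read that occurs once), and in the mix the first 31 (20 with such a read). Both stretches contain the LY75 intron 25 tile, which was listed in these comparisons but was not reachable.

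Beyond PLA2R1, 6 tiles were listed at and behind ITGB6, which encodes the beta subunit of an epithelial integrin. In the neighbourhood, 2 of 14 listed tiles were in all 3 tables, against 4250 of 72455 over the whole series. They made up 16.7% of the shRNA and 50% of the CRISPR listings there, against 16.3% and 29.5% over the series. The mix repeats the libraries of the other comparisons, the counts are small, and the difference was not tested. The first of these tiles, chr2:161051001-161052000, lies at exon 4 of ITGB6, 4763 bp from the nearest ITGB6 TSS. It held 9 CpGs, and 1 reachable CpG, the first of a fragment of 79 bp (chr2:161052000-161052078) whose remaining 78 bases fall in the next tile. That next tile, with 3 reachable CpGs of the same fragment, was listed in the shRNA comparison only. The second, chr2:161126001-161127000, lies between ITGB6 and RBMS1, which encodes an RNA-binding protein, and held 54 CpGs, 16 of them reachable. Its neighbour chr2:161125001-161126000 was listed in the CRISPR comparison only. In ITGB6 a tile of intron 7, chr2:161017001-161018000, was listed in the shRNA comparison and the mix, and upstream of ITGB6 the tile chr2:161062001-161063000 in the shRNA comparison only. The TSS tile of ITGB6, with 9 CpGs, held no reachable CpG, and neither did that of BAZ2B. A fragment of the CpG-rich tile listed throughout, chr2:161126791-161126840, is given on the plus strand.
Between ITGB6 and RBMS1: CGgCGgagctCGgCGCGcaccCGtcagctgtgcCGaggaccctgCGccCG

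**Figure D5:**
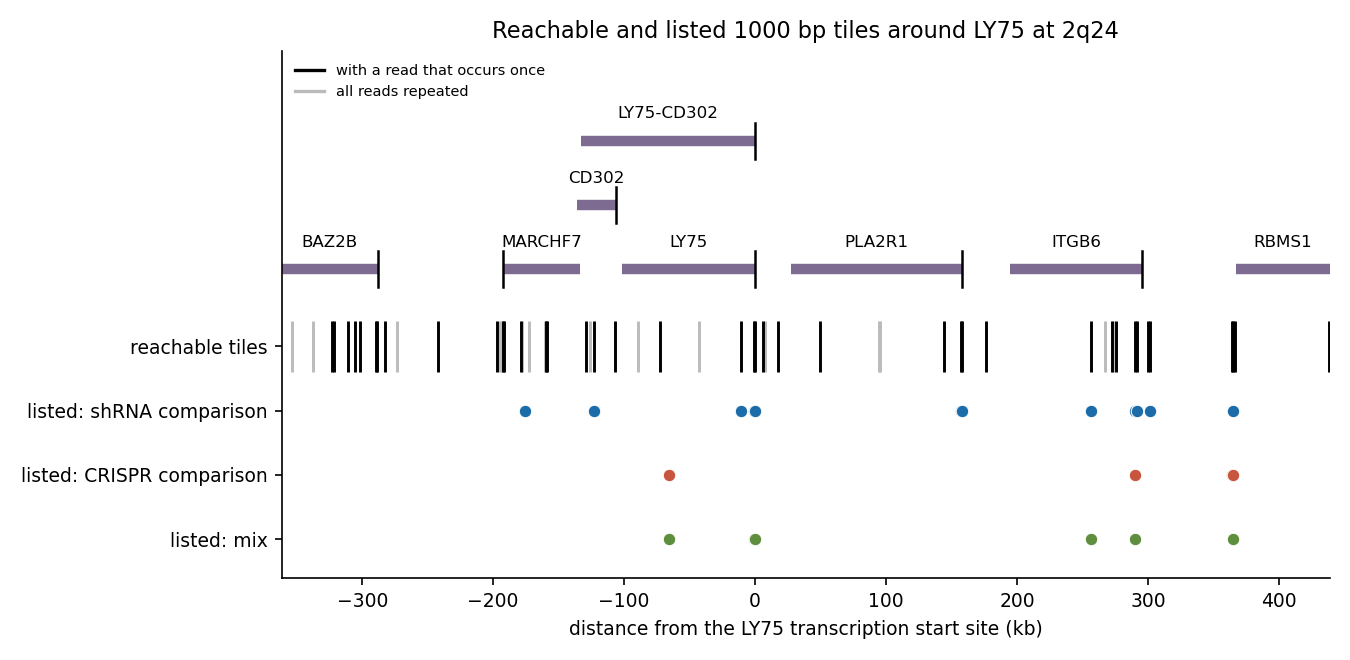
The 2q24 neighbourhood by distance from the LY75 TSS in kb (x axis, chromosome order). Purple bars are protein-coding genes with the canonical TSS as a black tick (that of RBMS1 is outside). Vertical lines are reachable tiles (black with a read that occurs once, grey with repeated reads alone) and dots are listed tiles. The 3 rows of dots coincide only beyond PLA2R1, at ITGB6 and between ITGB6 and RBMS1. This holds for 2 of 14 listed tiles, and the mix repeats the libraries of the other comparisons.

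Finally, gene lists around the family were counted by a listed tile within 2 kb of a TSS, among genes with a reachable tile there. Of 18079 such protein-coding genes, 33.5% had a listed tile in the shRNA comparison, 15.7% in the CRISPR comparison and 16.9% in the mix. Of 53 other C-type lectin receptor and related genes, 32 could be counted, of which 17 (53.1%), 3 (9.38%) and 9 (28.1%) had one. The 3 genes with a listed tile in both single comparisons, named after their values were seen, were CLEC9A, a receptor of dendritic cells for dead-cell actin, CLEC17A, a receptor of B cells, and COLEC11, a soluble collectin. CLEC9A and CLEC17A each had the same tile listed in all 3 tables, with 12 and 14 CpGs, whereas the tables listed different tiles of COLEC11. Of 32 ligands and partners, 28 could be counted, with 11 (39.3%), 5 (17.9%) and 6 (21.4%) having a listed tile. Those with one in both single comparisons, again named after their values were seen, were COL1A1, COL4A1 and COL4A2, which encode collagen chains, and PLAUR, the urokinase receptor, which associates with MRC2. COL4A1 and COL4A2 are read in opposite directions from one start region and were counted on the same 3 tiles. PLAUR and COL1A1 each shared 1 tile between the single comparisons, with 52 and 55 CpGs. In neither list was a tile that holds the TSS itself listed in both single comparisons. The shares of the lists were not tested against the other genes. How many of all protein-coding genes had a listed tile in both single comparisons was not counted. The genes named for both therefore have no such share beside them, and nothing particular to these lists can be read from them.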

How the data were processed

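DNA methylation was measured by RRBS in 4 SKOV3 libraries, 1 per clone. The submitters' processing notes name FastQC, Trim Galore 0.4.1, Bismark 0.16.1, methylKit and hg19; the coverage minimum is not given in the sources used here. The authors deposited 3 tables of 1000 bp tiles past their thresholds. Besides coordinates these hold a p-value, a q-value and a methylation difference of the authors' own comparisons, which were used only to count rows outside the thresholds; no values of single libraries were analysed here, so depth and precision are unknown. Absence from a table can mean no difference, too little coverage or no reads.

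Tiles were placed on GRCh37 with GENCODE release 44 (MRC1 and MRC1L1 from release 19). MspI fragments were cut in silico from chromosomes 1 to 22 and X. Predicted reads of 50 bases were compared with each other after C-to-T conversion, and not with the sequence away from MspI sites. The digest was tested on a simulated sequence. Shares have 95% Wilson intervals. Windows, fragment sizes and TSS definitions were varied. Named were all listed tiles of the members, all protein-coding 2q24 genes and list genes with the TSS tile listed in both single comparisons; as the last rule selected no gene, the 7 list genes named were chosen after their values were seen. Members and lists were chosen with earlier results of these data known. Upstream sequences of LY75, CD302 and PLA2R1 equal those of RefSeq (GRCh38.p14). Python 3.11.15, numpy 2.4.6, scipy 1.17.1 and matplotlib 3.10.9 were used. Some sequences are not reported here.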

Additional observations from a re-analysis of the deposited data

How the results depend on the processing

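In the order shRNA comparison, CRISPR comparison and mix, windows of 50 kb held 14, 6 and 7 listed tiles of the members, and 4, 2 and 3 of MRC1 alone. The tiles holding a TSS included 2, 0 and 1 listed tiles. With a listed tile anywhere in the gene extended by 20 kb, 27, 24 and 20 of 53 C-type lectin genes were counted. For ligands and partners the counts were 25, 22 and 16 of 32. These windows are larger by construction. The same count over all protein-coding genes was not made, so nothing particular to the lists can be read from these counts. The share of reachable tiles listed stayed inside its interval under the 4 alternatives planned and under 1 chosen after seeing the data, CpGs in reads that occur once, which gave 14.5%, 3.64% and 5.45% (genome 15.9%, 8.43% and 6.59%). Of 60 recounts of single members, 48 stayed within 1.5 times the count, 8 were higher and 4 lower. The 48 include recounts of 0 against 0, as for MRC1 in narrower windows, which could not have moved. Over all results, 24 of 102 alternatives moved, among them the 50 kb windows of the members together in each comparison. No paired analysis was possible because the result comes from no test and each clone has 1 library. Leaving out a library was not possible, and depth is unknown.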
